A study of Rattus norvegicus with 20 samples.

Results

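The genes described here are those that answered immobilization stress differently in the left ventricle than in the brain. They were found by a test of the difference of differences: the change from control to stress in the left ventricle, minus the same change in the brain. Of 24160 features in the count table, 16720 had enough reads to be tested. An adjusted p-value under 0.05 was reached by 126 genes, of which 60 had the more positive effect in the ventricle and 66 the more negative. The animals were male Sprague-Dawley rats, an outbred stock, of 250 to 300 g, in a normal control group and a stress cardiomyopathy (SCM) group immobilized for 6 hours over 7 days. Total RNA was sequenced in 20 libraries, 5 of each tissue in each group, and the stressed group is named "Model" in the labels. The study describes the ventricle and brain samples as coming from the same source, so a ventricle and a brain library that share a name in the labels were taken as 1 rat, 10 rats in all. The labels give no age and no brain region. The question was whether a stress response seen in one organ is shared by the other.

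Stress cardiomyopathy is a reversible failure of the left ventricle that follows emotional or physical stress, and it is linked to a surge of catecholamines from the sympathetic nerves and the adrenal gland. Immobilization is a classical stressor in rodents, which engages the sympathetic nerves and the hypothalamus, pituitary and adrenal axis. Each organ answers through its own receptors and its own set of active genes, and a whole-tissue library averages over all cells of the piece. In such a library, fewer cells of a type and less RNA per cell cannot be told apart.

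The identifiers in the table are Ensembl rat gene identifiers (23760) and XLOC locus identifiers (400), and 0 of them could be paired with a gene symbol here. No pathway, gene family or marker gene was therefore looked up, and only 4 identifiers are printed. Total counts ranged from 25390349 to 36251990 in the ventricle and from 22386526 to 35988591 in the brain. In place of marker genes, the 105 genes at least 200 times higher in the ventricle and the 423 at least 200 times higher in the brain were summed in each library, all with a mean over 20 in the tissue where they were higher, on the CPM scale (a gene's reads relative to the scaled total of its library). The ventricle genes summed to between 115352 and 131686 CPM in control ventricles, to between 127118 and 167659 CPM in SCM ventricles and to between 119 and 178 CPM in brain libraries. In 4 of the 5 SCM ventricles this sum lay above that of every control ventricle. The brain genes summed to between 66726 and 74594 CPM in brain libraries and between 95.6 and 143 CPM in ventricle libraries. Every library therefore matched its labelled tissue in these sums, which were drawn from the same values they describe. All CPM values are scaled by TMM, which sets libraries to a common level by their typical gene.

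The 126 genes made up 0.754% of those tested by edgeR's quasi-likelihood test with the rat as a block. Those with the more positive effect in the ventricle were 0.359% of the genes tested, and those with the more negative effect 0.395%. The absolute difference between the effects had a median of 0.98 on the log2 scale, against 0.25 over all genes tested. It exceeded 1 in 62 genes and 2 in 11. At the limit, the last gene inside had an adjusted p-value of 0.0498 and a log2 difference of 0.56 with a standard error of 0.12, and the first outside had 0.0505 and 0.62 with a standard error of 0.13. Another 183 genes had an adjusted p-value between 0.05 and 0.1.

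Calls were more frequent among abundant genes, where the difference was measured more tightly. With the genes tested divided into 4 equal parts by their mean level, 2 genes were called in the lowest part, 13 in the next, 36 in the next and 75 in the highest, above 46.5 CPM. The median standard error of the difference fell from 0.95 in the lowest part to 0.14 in the highest.

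The genes were sorted by the effect of stress within each tissue, fitted separately with edgeR. Of the 126 genes, 123 could be tested in both tissues. A gene was placed in the ventricle-only class when its unadjusted p-value was under 0.05 in the ventricle and not in the brain, in the brain-only class in the reverse case, in the opposite class when both were under 0.05 with different signs, and in the same-direction class when both were under 0.05 with 1 sign. The ventricle-only class held 90 genes, the opposite class 27, the brain-only class 3 and the same-direction class 3. No gene failed the limit in both tissues. These classes describe the same libraries that chose the genes, so they carry no test of their own.

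Among the genes described, the ventricle carried most of the response. Of the 123 genes, 120 had an unadjusted p-value under 0.05 in the ventricle and 33 in the brain, where 23.2% and 14.3% of all genes tested in that tissue did. An adjusted p-value under 0.05 was reached by 107 in the ventricle and 4 in the brain, against backgrounds of 5.21% (727 of 13954 genes) and 0.175% (28 of 16002). The genes were chosen in these same libraries for a difference between the tissues, so the excess over these backgrounds is a description and no separate test. In absolute terms, the log2 fold change of the 123 genes had medians of 0.84 (ventricle) and 0.13 (brain). The effects of these genes were estimated more tightly in the brain. Standard errors hold counting error as well as the spread between rats. The median standard error of these effects was 0.15 in the ventricle and 0.094 in the brain, and it was larger in the ventricle for 84.6% of the 123 genes and for 73.2% of all 13379 genes tested in both tissues.

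**Figure D1:**
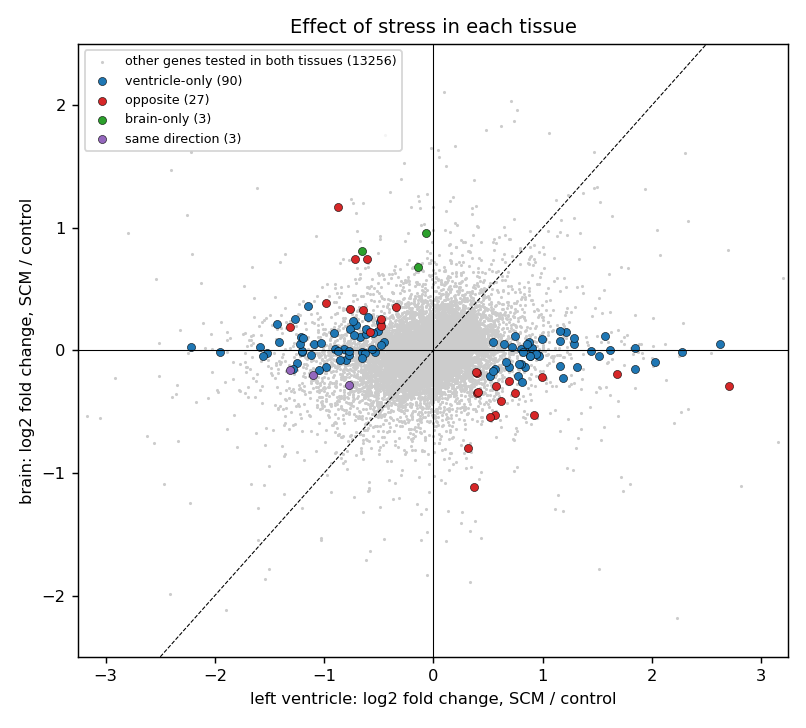
Effect of stress in each tissue. Each point is 1 of 13379 genes tested in both tissues, placed by its log2 fold change of SCM against control in the left ventricle (horizontal axis) and in the brain (vertical axis), with 11 genes outside the axes and the dashed line marking equal effects. The 90 ventricle-only genes lie along the horizontal axis on both sides, and the 27 opposite genes lie in the upper left and lower right.

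The ventricle-only class comprised 43 genes with higher and 47 with lower levels in the SCM ventricle. The 43 had ventricle log2 fold changes from 0.52 to 2.62 with a median of 0.90, and brain log2 fold changes from -0.26 to 0.16 with a median of -0.01. The 47 had ventricle changes from -2.22 to -0.45 with a median of -0.87, and brain changes from -0.16 to 0.36 with a median of 0.03. The ventricle effect exceeded 1 on the log2 scale in 37 of the 90. An adjusted p-value under 0.05 in the ventricle was reached by 41 of the 43 and by 44 of the 47, and by none in the brain.

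For most of these genes the brain values left room only for a small effect. The 95% confidence interval of the brain effect lay within 0.5 of 0 on the log2 scale for 78 of the 90 genes, and within 1 for all 90. The median standard error of the brain effect was 0.094 in this class and 0.115 over all genes tested in both tissues, so tight intervals were not particular to the class. The class also requires a brain p-value not under 0.05, which favours brain effects near 0. In the ventricle, all 5 SCM rats lay on one side of all 5 control rats for 37 of the 43 higher genes and 46 of the 47 lower genes, 83 of 90 together, where 6.48% of all genes tested did. In the brain it held for 0 of the 90, where 3.82% of all genes did. Both counts of non-overlapping genes follow from the p-values that define the class.

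ENSRNOG00000014900 had the lowest interaction p-value of all and belonged to the ventricle-only class. In the control ventricle it was at 29.1, 62.9, 34.2, 47.7 and 30.1 CPM in replicates 1 to 5, and in the SCM ventricle at 120, 130, 108, 89.6 and 127 CPM. In the control brain it was at 11.9, 19.8, 13.0, 17.4 and 14.8 CPM, and in the SCM brain at 16.6, 18.9, 11.8, 13.2 and 14.2 CPM. Every SCM ventricle lay above every control ventricle, and the brain groups overlapped.

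The mean of ENSRNOG00000014900 rose from 40.8 ± 14.4 to 115 ± 16.6 CPM (SD, n = 5 each) in the ventricle, a 2.86-fold rise (adjusted p = 0.00442, edgeR). The brain means were 15.4 ± 3.23 and 14.9 ± 2.8 CPM (SD, n = 5 each). The brain log2 fold change was -0.04, with a 95% interval from -0.39 to 0.30. The difference between the tissues was 1.58 on the log2 scale, with a standard error of 0.14 (adjusted p = 0.000839, edgeR). Within single rats, the ventricle exceeded the brain by 1.00 to 1.64 in controls and by 2.72 to 3.15 in SCM rats, in units of log2(CPM + 0.5).

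ENSRNOG00000014966 was the ventricle-only gene with the lowest p-value among those lower in the SCM ventricle. Its control ventricles were at 61.0, 61.2, 64.6, 59.6 and 61.0 CPM, and its SCM ventricles at 23.2, 34.9, 39.6, 35.5 and 27.8 CPM. Its control brains were at 32.1, 31.4, 28.5, 30.1 and 30.3 CPM and its SCM brains at 31.3, 33.9, 36.9, 35.9 and 31.0 CPM. The control ventricles were almost level with one another and stood clear of all SCM ventricles.

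The ventricle mean of ENSRNOG00000014966 fell from 61.5 ± 1.84 to 32.2 ± 6.59 CPM (SD, n = 5 each), a ratio of 0.531 (adjusted p = 0.00434, edgeR). The brain means were 30.5 ± 1.37 and 33.8 ± 2.69 CPM (SD, n = 5 each). The brain log2 fold change was 0.14, with a 95% interval from -0.02 to 0.30. The difference between the tissues was -1.10 with a standard error of 0.12 (adjusted p = 0.0031, edgeR). Control rats had 0.92 to 1.17 more in the ventricle than in the brain on the log2 scale, and SCM rats between -0.42 and 0.10.

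Of the other ventricle-only genes, 1 with the second lowest p-value rose from 56.6 ± 6.56 to 228 ± 84.5 CPM (SD, n = 5 each) in the ventricle, and was at 9.45 ± 0.469 and 8.85 ± 0.871 CPM (SD, n = 5 each) in control and SCM brains. The next by p-value rose from 21.4 ± 2.99 to 75.8 ± 14.5 CPM in the ventricle and was at 18.4 ± 0.839 and 18.8 ± 1.13 CPM in the brain (SD, n = 5 each). Both were thus measurable in the brain, and their brain groups overlapped.

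The opposite class held 16 genes that were higher in the SCM ventricle and lower in the SCM brain, and 11 with the reverse pattern. In the 16, ventricle log2 fold changes ran from 0.31 to 2.71 with a median of 0.57, and brain changes from -1.11 to -0.18 with a median of -0.34. In the 11, ventricle changes ran from -1.31 to -0.34 with a median of -0.64, and brain changes from 0.15 to 1.17 with a median of 0.34. The ventricle effect was the larger in 20 of the 27 and the brain effect in 7. Adjusted p-values under 0.05 were reached by 19 of the 27 in the ventricle and by 4 in the brain, with 2 in both, so that for most of them the opposite sign in the brain rests on an unadjusted p-value.

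ENSRNOG00000014856 had the lowest p-value among opposite genes that were higher in the ventricle. In the ventricle it was at 108, 198, 122, 121 and 129 CPM in control replicates 1 to 5 and at 491, 500, 335, 308 and 503 CPM in SCM replicates. In the brain it was at 399, 409, 368, 404 and 369 CPM in controls and at 346, 306, 365, 341 and 352 CPM in SCM rats. The groups did not overlap in either tissue, although the brain groups came within a few CPM of each other and control ventricle replicate 2 stood above the other control ventricles.

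The ventricle mean of ENSRNOG00000014856 rose from 136 ± 35.8 to 427 ± 97.5 CPM (SD, n = 5 each), 3.20-fold (adjusted p = 0.00253, edgeR). Its brain means were 390 ± 19.8 and 342 ± 22.4 CPM (SD, n = 5 each), a log2 fold change of -0.19 with a 95% interval from -0.34 to -0.05 (adjusted p = 0.233, edgeR). The difference between the tissues was 1.85 with a standard error of 0.21 (adjusted p = 0.0031, edgeR). In every control rat the brain held more of this RNA than the ventricle, by 1.04 to 1.88 on the log2 scale, and in SCM rats the ventricle minus brain difference lay between -0.15 and 0.71.

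ENSRNOG00000018859 was the opposite gene with the lowest p-value among those lower in the SCM ventricle, and 1 of the 2 that passed the adjusted limit in the ventricle and in the brain. Control ventricles were at 99.9, 117, 92.4, 152 and 95.4 CPM and SCM ventricles at 37.4, 68.3, 50.3, 61.1 and 61.1 CPM. Control brains were at 42.2, 44.3, 41.3, 44.5 and 40.8 CPM and SCM brains at 53.4, 58.1, 52.0, 58.2 and 58.6 CPM. All SCM ventricles lay below, and all SCM brains above, the controls of their tissue.

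The mean of ENSRNOG00000018859 fell from 111 ± 24.8 to 55.6 ± 12.1 CPM in the ventricle (SD, n = 5 each, adjusted p = 0.0113, edgeR) and rose from 42.6 ± 1.69 to 56.1 ± 3.11 CPM in the brain (SD, n = 5 each, adjusted p = 0.0377, edgeR). The log2 fold changes were -0.98 with a standard error of 0.18 in the ventricle and 0.39 with a standard error of 0.06 in the brain, and the difference between the tissues was -1.40 with a standard error of 0.16 (adjusted p = 0.00312, edgeR).

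**Figure D2:**
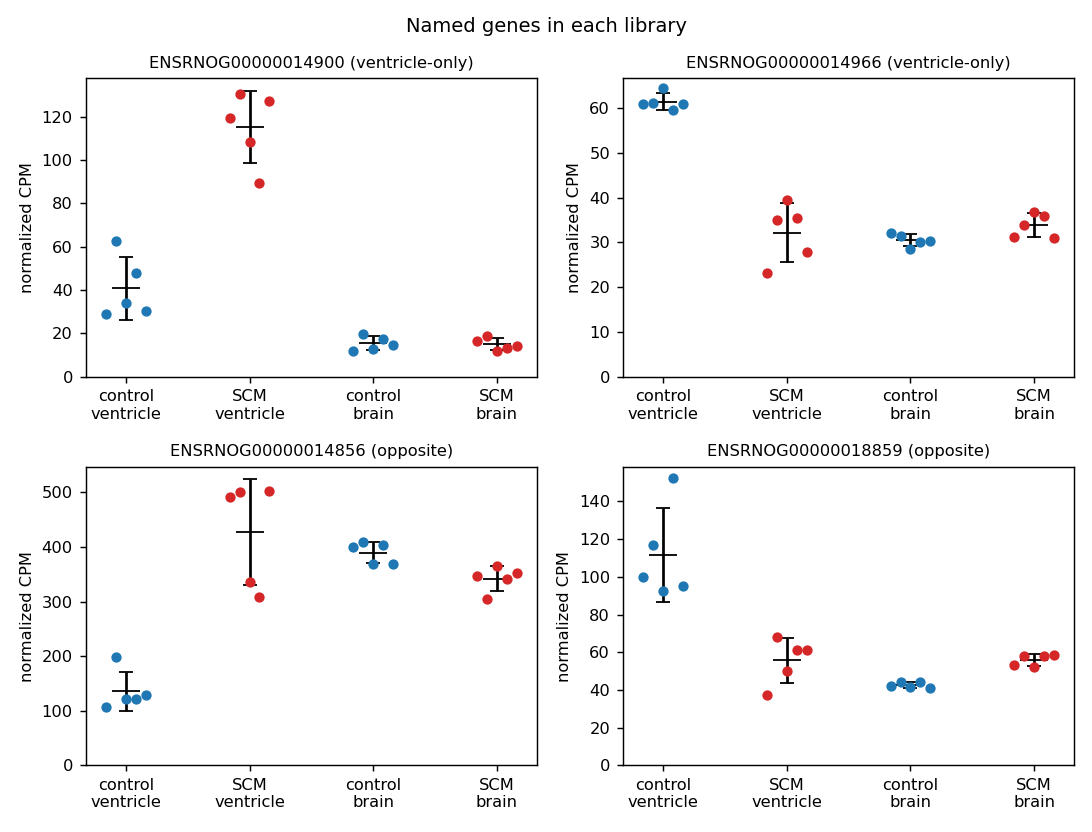
Named genes in each library. Points are normalized CPM in single libraries, control in blue and SCM in red, bars show the mean and SD of 5 rats, and each panel is 1 gene. The upper genes belong to the ventricle-only class and the lower genes to the opposite class, as set by unadjusted p-values in each tissue. The brain log2 fold changes of ENSRNOG00000014966 (0.14) and ENSRNOG00000014856 (-0.19) are of similar size, although their classes differ.

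The second gene past the adjusted limit in both tissues went the other way, from 268 ± 26.5 to 391 ± 63.4 CPM in the ventricle and from 81.8 ± 9.82 to 57.0 ± 4.77 CPM in the brain (SD, n = 5 each). The remaining 2 genes with an adjusted p-value under 0.05 in the brain fell there and moved less in the ventricle. The first was at 26.8 ± 6.18 CPM in control and 12.5 ± 2.21 in SCM brains, and at 48.3 ± 11.8 and 61.5 ± 3.03 in the ventricles (SD, n = 5 each). The second was at 75.9 ± 10.9 and 43.9 ± 7.55 CPM in the brains, and at 24.2 ± 1.23 and 29.7 ± 3.74 in the ventricles (SD, n = 5 each). In both of these genes all SCM brains lay below all control brains, and the ventricle groups overlapped.

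The 3 brain-only genes were all higher in the SCM brain, and none reached an adjusted p-value under 0.05 in either tissue, the lowest being 0.0977 in the brain (edgeR). For that gene, control brains were at 53.7, 73.6, 59.1, 99.9 and 72.8 CPM and SCM brains at 121, 136, 116, 98.7 and 106 CPM. Its ventricles were at 78.8 to 96.3 CPM in controls and at 67.0 to 83.8 CPM in SCM rats, and the groups overlapped in both tissues. The difference between the tissues was -0.87 on the log2 scale with a standard error of 0.18 (adjusted p = 0.0498, edgeR).

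The other 2 brain-only genes were ventricle genes seen at a low level in the brain. The first was at 543 to 718 CPM in control ventricles and 545 to 679 in SCM ventricles, and at 0.838 to 1.43 CPM in control brains and 1.41 to 3.09 in SCM brains. The second was at 17.4 to 53.3 and 12.7 to 34.6 CPM in the ventricles, and at 1.00 to 2.05 and 1.48 to 3.79 CPM in the brains. The groups overlapped in every one of these comparisons. The summed level of the 105 ventricle genes was 132 to 178 CPM in control brains and 119 to 162 in SCM brains, and its part in these values was not tested. With RLE normalization 0 brain-only genes were called.

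The 3 same-direction genes fell in the SCM ventricle, and their brain effects had the same sign, with unadjusted p-values under 0.05 but no adjusted one. Their ventricle log2 fold changes were -1.31, -1.10 and -0.78, and their brain changes -0.16, -0.20 and -0.28, in the same order. The ventricle groups did not overlap for any of the 3, and the brain groups overlapped for all. The gene with the strongest fall was at 5.69 to 8.47 CPM in control and 1.81 to 3.73 in SCM ventricles, while its brain level was 192 to 210 and 169 to 193 CPM.

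In 3 genes, too few reads in one tissue prevented a fit there. One was at 522 to 668 CPM in control and 310 to 542 in SCM ventricles but had 1 to 6 counts per control brain library and 7 to 23 per SCM brain library, so its difference of -2.38 (adjusted p = 0.0256, edgeR) rests on traces in the brain. Another had 4 to 14 counts per control ventricle library and 0 in all 5 SCM ventricles, at least 11.3-fold lower when 3 counts over the group are taken as the floor. Its brain level was 3.37 to 5.29 CPM in controls and 4.23 to 4.89 in SCM rats. The last had 0 to 2 counts in control ventricles and 4 to 9 in SCM ventricles, against 0.816 to 1.73 CPM in control and 0.203 to 1.05 in SCM brains. The fitted size of these differences depends on the handling of low counts.

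The same difference can be read in every rat. For each rat the log2 level in its brain was subtracted from that in its ventricle, and the 5 SCM rats lay on one side of the 5 control rats for 123 of the 126 genes (97.6%), where 3.97% of all genes tested did. That share follows from how the genes were chosen. Turned so that the fitted direction is positive, the median shift of these genes from the control mean was 1.02, 0.98, 0.81, 0.81 and 1.00 in SCM replicates 1 to 5. In the ventricles alone it was 0.90, 0.82, 0.67, 0.74 and 0.83, and in the brains alone -0.07, -0.16, -0.08, -0.06 and -0.07. SCM replicates 3 and 4 showed the smallest shifts, and their ventricles also had the lowest sums of the 105 ventricle genes in the SCM group, at 127118 and 137414 CPM against 150076 to 167659 CPM in the other 3. The part of that sum in the shifts was not tested. In control rats the median shift lay between -0.08 and 0.09.

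**Figure D3:**
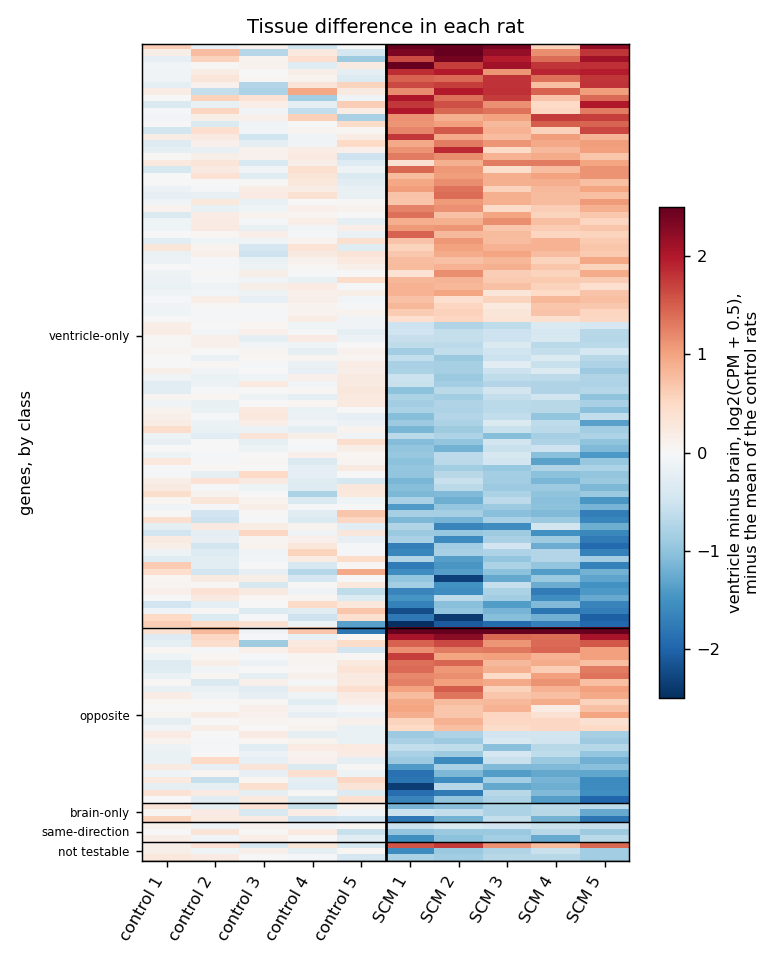
Tissue difference in each rat. Each line is 1 of the 126 genes and each column 1 rat, and colour gives the log2 level in the ventricle minus that in the brain, less the mean of the control rats, with colours ending at 2.5 either way (10 of 1260 values lie beyond). The 5 SCM columns keep 1 colour within a gene almost throughout, and the control columns stay pale.

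At baseline the genes were more abundant than most in both organs. Their mean level in control rats had a median of 48.9 CPM in the ventricle and 48.4 in the brain, against 12.03 and 14.8 over all genes tested. Calls rose with level, from 2 genes in the lowest of the 4 level parts to 75 in the highest, and no comparison at matched levels was made. The control levels of the tissues lay within 4-fold of each other for 85 of the 126 genes (67.5%, against 74.1% of all genes tested). The ventricle exceeded the brain by more than 4-fold for 21 genes (16.7%, against 9.72%) and the brain exceeded the ventricle for 20 (15.9%, against 16.2%).

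Levels of the tissues depend on the scaling between them. The TMM factors were 0.691 to 0.801 in the ventricle and 1.23 to 1.39 in the brain, and with scaling by total count alone the median log2 ratio of ventricle to brain in control rats moved from 0.29 to -0.49 for the genes described and from -0.14 to -0.80 for all genes tested. By that scaling the ventricle was more than 4-fold higher for 9 genes (7.14%, against 5.55% of all genes tested) and the brain for 32 (25.4%, against 22.8%). The effect of stress within a tissue was fitted on libraries of that tissue and does not rest on this ratio. The interaction test scaled the libraries of both tissues together. It called 126 genes (60 more positive and 66 more negative in the ventricle), and 115 (62 and 53) with TMM within each tissue.

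Baseline levels also varied among the classes. The median log2 ratio of ventricle to brain was 0.60 in the 16 opposite genes higher in the SCM ventricle and 0.89 in the 11 lower ones. It was 0.34 in the 43 ventricle-only genes that were higher and -0.13 in the 47 that were lower. By total count alone these medians were -0.17, 0.12, -0.43 and -0.90, in the same order, so the sign turned for the 16 and for the 43. Among those 47, the brain exceeded the ventricle by more than 4-fold in 10 genes and the ventricle the brain in 4, and among the 43 the numbers were 5 and 9. With scaling by total count alone they were 15 and 0 for the 47, and 8 and 3 for the 43.

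**Figure D4:**
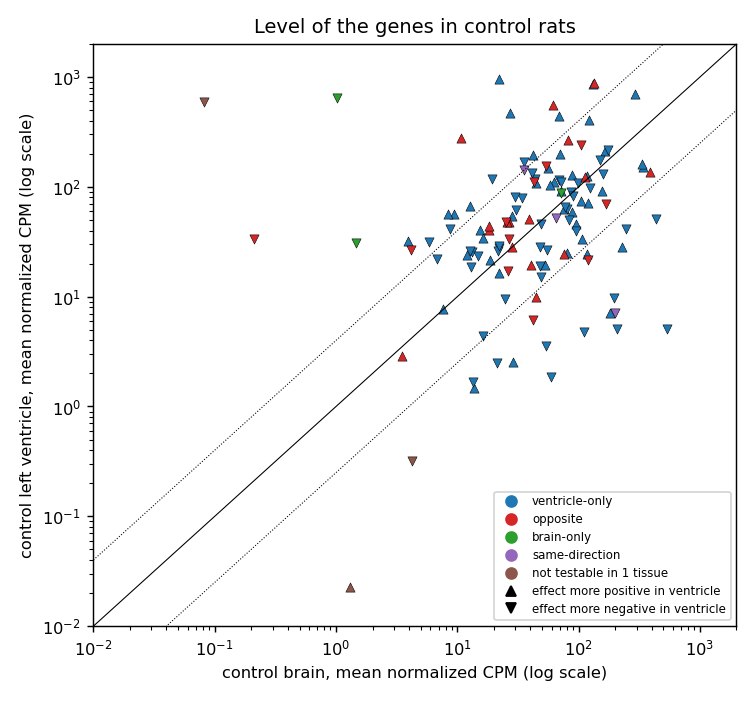
Level of the genes in control rats. Each point is 1 gene at its mean normalized CPM in 5 control brains (horizontal, log scale) and 5 control ventricles (vertical, log scale), coloured by class, with the triangle pointing up where the effect was more positive in the ventricle. The solid line marks equal levels and the dotted lines 4-fold differences, between which 85 genes lie.

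Stress narrowed the gap between the tissues in 46 of the 126 genes (36.5%), while it narrowed in 49.1% of all genes tested. In 28 genes (22.2%) the order of the tissues was turned, so that the organ with the higher mean in control rats had the lower one in SCM rats, as against 6.84% of all genes tested. With scaling by total count alone, tried after the data were seen, the gap narrowed in 45 genes (35.7%, against 45.5%) and the order turned in 20 (15.9%, against 5.36%), of which only 9 were among the 28. For ENSRNOG00000014966 and ENSRNOG00000018859 the order turned by both scalings, and by total count the mean log2 ventricle minus brain difference went from 0.23 to -0.91 and from 0.58 to -0.87. For ENSRNOG00000014856 it turned with TMM alone, and by total count the difference went from -2.33 to -0.54, with the brain higher in both groups. Control libraries enter both the baseline and the effect, and the genes were chosen for a large difference, so these shares are a description.

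Most genes called in one organ did not reach the adjusted limit for a difference between the organs. Of the 708 genes with an adjusted p-value under 0.05 in the ventricle that could also be tested in the brain, 107 (15.1%) were among the genes described. The absolute log2 fold change of the other 601 had medians of 0.63 (ventricle) and 0.16 (brain), with the same sign in 468, and 404 of them had an unadjusted interaction p-value under 0.05, as did 13.9% of all genes tested. Of the 26 such genes called in the brain, 4 were among the genes described, and the other 22 had the same sign in both tissues in 20 and an unadjusted interaction p-value under 0.05 in 11. A gene outside the called set is therefore not shown to respond alike in both organs.

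The number of genes depended strongly on single rats. When 1 rat was left out with both its libraries, the number was 22, 37, 10, 93 and 217 without control replicates 1 to 5, and 33, 33, 151, 83 and 29 without SCM replicates 1 to 5. The 4 named genes were among 9 that were called in each of the 10 and in 9 other fits, and of the 9 genes 6 were ventricle-only and 3 opposite. Because the named genes were picked for low interaction p-values, their place among the 9 follows largely from that choice. Without the rat as a block, 285 genes were called.

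**Figure D5:**
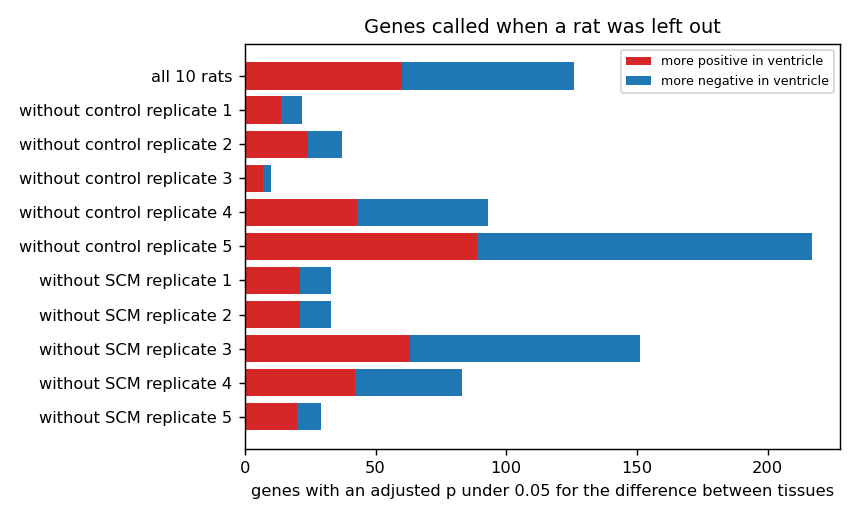
Genes called when a rat was left out. Bars give the number of genes with an adjusted p-value under 0.05 for the difference between tissues (horizontal axis), split by direction, for all 10 rats and without each rat. The number runs from 10 without control replicate 3 to 217 without control replicate 5, against 126 with all rats.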

How the data were processed

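The values analysed are unnormalized counts, which the authors deposited as 1 table with a column per library. The submitters' processing notes name HISAT2, StringTie, SAMtools and the build mRatBN7.2 without roles. The counting program and strandedness are not given in the sources used here, and genes that overlap, or that have close copies, may hold reads of one another.

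Counts were fitted with edgeR 4.0.16 in R 4.3.3 (filterByExpr, minimum count 10 and minimum total 15; TMM; quasi-likelihood test; Benjamini-Hochberg adjustment over all genes tested). The interaction model held the rat, the tissue and their difference in stress effect. The rat was read from the name that a ventricle and a brain library share in the labels, and the study describes both tissues as taken from the same source. Deviations of such libraries from their group means correlated at 0.065 to 0.165 across genes (median 0.122, over 0.1 in 7 of 10 rats). Between the ventricle and brain of different rats of a group the median was -0.034. Same-numbered control and SCM rats are different animals, and their libraries of a tissue correlated at -0.065 to 0.142 (ventricle) and -0.223 to 0.139 (brain). Correlations of this size therefore do not by themselves mark a pair of libraries as coming from the same rat. The effect within a tissue was fitted on its 10 libraries. Intervals cover 95% and, for low counts, counting error was limited by depth, with 3 counts as the floor (at most 0.165 CPM in any library). All pairs of libraries within a group differed by at least 11.6 times the sampling variance. The fits were tested on simulated data. Whether rats shared a cage or an extraction day is not given, so p-values measure the spread between these rats.

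Alternatives were other scalings, filters and limits, DESeq2 1.42.0, limma 3.58.1 with voom, a fit without the block and leaving out each rat. The genes, classes and tests were chosen with earlier results of these data known. Without symbols at most 2 identifiers that rose and 2 that fell were to be printed, and after the values were seen they were taken as, in each direction of the ventricle effect, the ventricle-only and the opposite gene with the lowest interaction p-value. Gene lists and promoter sequences that need symbols were not used. The exact permutation test of the rat differences was not given, since these genes were chosen on the same contrast.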

Additional observations from a re-analysis of the deposited data

Results flagged for a closer look

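By the interaction test, 126 genes differed, 60 with a more positive and 66 with a more negative stress effect in the ventricle than in the brain. Among the named genes the difference was 1.58 for ENSRNOG00000014900, -1.10 for ENSRNOG00000014966, 1.85 for ENSRNOG00000014856 and -1.40 for ENSRNOG00000018859, all on the log2 scale as ventricle minus brain.

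Of 32 groups of 5 libraries or rats examined, 2 held a value far from the other 4, where 1.6 would be flagged by chance. ENSRNOG00000014856 was at 198 CPM in control ventricle replicate 2 and at 108 to 129 CPM in the other control ventricles. Control brain replicate 5 had 19237 features with a count, against 18972 to 19025 in the other control brains. Without control replicate 2, 37 genes were called for the interaction, and 217 without control replicate 5. The part of these libraries in the counts was not tested beyond leaving them out.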

How the results depend on the processing

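The 4 named genes had an adjusted p-value under 0.05 in all 19 refits (edgeR, DESeq2 and limma), the largest being 0.00746 for ENSRNOG00000014900 and 0.0150 for ENSRNOG00000014966, ENSRNOG00000014856 and ENSRNOG00000018859. They were picked for low interaction p-values in the same libraries, which favours such persistence. Of the 126 genes, 82 were called in all 9 refits that changed the scaling, filter, tool or block, and 9 in all 10 that left out a rat. The cause of each change below was not tested.

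The number of interaction genes was 109 with RLE (62 more positive in the ventricle, 47 more negative), 126 with upper-quartile scaling, 115 with TMM within each tissue, 110 without a filter and 164 with limma-voom and the rat as a fixed block. Requiring 10 counts per library gave 198 (98 more positive, 100 more negative). With DESeq2 it was 560 (294 and 266), with limma-voom and the rat as a random block 118 and 134, and with no replicate block 285 (115 and 170). A limit of 1 on the absolute log2 difference left 62 (29 and 33), a limit of 2 left 11 (6 and 5), and an adjusted p-value under 0.1 gave 309 (135 and 174).

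Opposite, ventricle-only, brain-only, same-direction and neither-tissue genes, and those not testable in 1 tissue, numbered 27, 90, 3, 3, 0 and 3. They numbered 89, 373, 43, 19, 8 and 28 with DESeq2. With the random rat block, opposite, ventricle-only, brain-only, same-direction and untestable genes numbered 53, 167, 8, 9 and 15, and with no replicate block 50, 180, 12, 9 and 34. Requiring 10 counts per library gave 138 ventricle-only, 9 brain-only, 9 same-direction, 2 neither-tissue and 0 untestable genes. Limma-voom with the fixed block gave 6 same-direction, 3 neither-tissue and 8 untestable genes. Brain-only genes numbered 0 with RLE, 1 with TMM within each tissue and 1 without a filter, which left 0 untestable. With an adjusted p-value in each tissue, 2 genes were opposite, 0 same-direction and 14 in neither tissue. With effects from 1 fit of all libraries, 1 gene was same-direction and 0 untestable. A replicate block within each tissue moved no class by over 1.5 times, and same-numbered rats of different groups are different animals.

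Leaving out 1 rat gave from 10 to 217 interaction genes, from 7 to 89 more positive and from 3 to 128 more negative in the ventricle. Opposite genes ranged from 4 to 42, ventricle-only from 6 to 152, brain-only from 0 to 5, same-direction from 0 to 9, neither-tissue from 0 to 4 and untestable from 0 to 5.

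Of the 4180 genes under 3.40 CPM 2 were called, and the standard error of the difference was largest there. What depth adds to it was not tested. Low values of ventricle genes in the brain rest on few reads.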
